A study of Mus musculus with 12 samples.

Results

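The thioredoxin system genes described here are Txnrd1, Txnrd2 and Txnrd3, which encode thioredoxin reductases, Txn1 and Txn2, which encode thioredoxins, the sulfiredoxin gene Srxn1, and the peroxiredoxin genes Prdx1, Prdx3, Prdx5 and Prdx6. They were chosen by gene symbol in the platform annotation, with 1 probe set (a group of short oligonucleotides that reports the transcripts of a gene) for each. Of the 10 genes, 8 were measured, among 19505 genes with a symbol in all, and Prdx5 and Prdx6 matched no symbol in that annotation and were not analysed here. The cells were GSC-H cells, mouse glioma stem cells recovered from late-stage intracranial tumors, which trace back to neural stem/progenitor cells that lack Ink4a/Arf and overexpress H-RasV12. All 4 groups thus share these alterations and come from 1 line grown without serum. Cells received phosphate-buffered saline (PBS) in normoxia (Nx P), 3 mM doranidazole in normoxia (Nx D), PBS in hypoxia (Hx P) or 3 mM doranidazole in hypoxia (Hx D). Exposure lasted 24 h, at 21% O2 for normoxia and 1% O2 for hypoxia per the labels, and doranidazole is a 2-nitroimidazole radiosensitizer. Each group had 3 Clariom S Mouse arrays of biological replicates, which the study describes as biologically independent and as 1 experiment, and the p-values reflect only the spread among these arrays. Whether cells of a kind were fewer or held less of an RNA cannot be told apart in such bulk samples.

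Thioredoxins are small proteins that reduce disulfides in other proteins and are themselves returned to the reduced state by thioredoxin reductases at the cost of NADPH. Most peroxiredoxins break down hydrogen peroxide with electrons from thioredoxin, and sulfiredoxin repairs certain peroxiredoxins whose active cysteine has been oxidised too far. Txnrd1, Txn1 and Prdx1 act mainly in the cytosol, Txnrd2, Txn2 and Prdx3 in mitochondria, and Txnrd3 encodes a thioredoxin and glutathione reductase best known from mouse testis. Txnrd1, Srxn1, Txn1 and Prdx1 are textbook targets of NRF2 (Nfe2l2), a transcription factor that is held back by KEAP1 and that binds antioxidant response elements together with small Maf proteins.

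The stretches just upstream of the start of Txnrd1, Srxn1, Prdx1 and Txn1 are shown because the transcripts of these 4 genes moved together in hypoxia, as described below. RefSeq windows (GRCm38.p6) of 250 bases before to 50 bases after each start were searched on both strands for TGACNNNGC, the core of the antioxidant response element, and for TGANTCAGC, the form bound by small Maf heterodimers, which was added after the windows had been read. The patterns share letters, so that 1 stretch can match both. All 8 measured genes had a window, 10 windows in total because Txnrd1 has 3 starts. Only the 250 bases before the start are printed, 5′ to 3′ on the strand of the gene, with each match in capitals. The Txnrd1 window is the one of its 3 with a match, at chr10:82858956-82859205 (plus strand), and the others are chr2:152105274-152105523 (plus) for Srxn1, chr4:116685349-116685598 (plus) for Prdx1 and chr4:57956412-57956661 (minus) for Txn1.
Txnrd1: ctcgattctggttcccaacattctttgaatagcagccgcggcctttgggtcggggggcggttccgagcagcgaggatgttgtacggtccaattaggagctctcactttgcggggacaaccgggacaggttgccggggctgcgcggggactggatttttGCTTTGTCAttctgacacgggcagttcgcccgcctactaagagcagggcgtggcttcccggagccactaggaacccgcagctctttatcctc
Srxn1: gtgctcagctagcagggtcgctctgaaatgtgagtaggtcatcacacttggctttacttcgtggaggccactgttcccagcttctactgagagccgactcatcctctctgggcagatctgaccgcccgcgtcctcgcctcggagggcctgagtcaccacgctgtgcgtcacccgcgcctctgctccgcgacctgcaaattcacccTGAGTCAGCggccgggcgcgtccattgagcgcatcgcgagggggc
Prdx1: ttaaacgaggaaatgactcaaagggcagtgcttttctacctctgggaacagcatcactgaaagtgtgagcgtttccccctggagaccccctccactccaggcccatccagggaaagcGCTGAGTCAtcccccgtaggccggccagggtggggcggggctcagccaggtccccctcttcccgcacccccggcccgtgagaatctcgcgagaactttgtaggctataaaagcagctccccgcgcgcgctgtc
Txn1: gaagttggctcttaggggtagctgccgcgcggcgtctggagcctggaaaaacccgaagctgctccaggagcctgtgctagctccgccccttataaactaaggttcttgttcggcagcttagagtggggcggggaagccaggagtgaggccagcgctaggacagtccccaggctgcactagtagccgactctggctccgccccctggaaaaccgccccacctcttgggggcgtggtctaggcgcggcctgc
The core element GCTTTGTCA, read on the other strand, began 92 bases before the start of Txnrd1. In Prdx1, GCTGAGTCA began 133 bases before the start and matched both patterns on the other strand. In Srxn1, TGAGTCAGC began 45 bases before the start, and GCTAGGTCA, a core match on the other strand, began 29 bases after it. Neither pattern was present in the Txn1 window. The core was found in 12.4% of all 32851 windows of this length, the small Maf form in 1.19% and either pattern in 13%. Of the 10 windows of the 8 genes, 3 had the core, and 2 of these 3 also had the small Maf form. Because that form was added after these windows had been read, its count is no test against 1.19%. A match is a description of letters and not a measured binding site.

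Across the arrays, the median log2 signal of all probe sets lay between 4.65 and 4.73 on the 9 arrays outside Hx D and between 4.75 and 4.88 on the Hx D arrays, where the SD over probe sets was 3.51 to 3.67 against 3.72 to 3.81 elsewhere. Each array correlated with the others of its group at a mean r of 0.985 to 0.995. The labelled cell type was checked against markers. In Nx P, Nes (nestin), Sox2 and Cd44 had group means of 12.8, 13.95 and 16.1, and Fabp7, Msi1 and Olig2 of 10.62, 9.23 and 6.62. Prom1 was at 3.09 to 3.53 in all groups, below the median probe set. Of the 7 stem cell markers, 0 rose and 4 fell with doranidazole in hypoxia, beside 12.6% of all probe sets that rose and 15.1% that fell, and their mean log2 signal was 8.63 to 8.75 on the Hx D arrays against 10.46 to 10.59 on the Hx P arrays. Sox2 averaged 14.36 in Hx P and 10.87 in Hx D, and Fabp7 10.58 and 4.70. Nes averaged 13.48 in Hx P and 13.76 in Hx D. Among markers of other cell types, 1 of 5 microglial, 1 of 4 endothelial and 1 of 4 fibroblast genes rose and 1 of 4 astrocyte genes fell in that comparison, to be read beside the same 12.6% and 15.1%. On the Hx P and Hx D arrays, the mean log2 signal ran from 3.41 to 3.60 and 3.61 to 3.80 for the microglial list, from 3.18 to 3.42 and 3.75 to 3.79 for the endothelial list, from 3.68 to 3.74 and 3.88 to 4.17 for the fibroblast list and from 4.27 to 4.51 and 3.67 to 3.91 for the astrocyte list. Of 4 neuronal and 3 measured oligodendrocyte genes, 0 passed, and the neuronal marker Tubb3 had group means of 9.94 to 10.56. With doranidazole in normoxia, 0 of the 7 stem cell markers rose and 1 fell, beside 1.29% and 0.293% of all probe sets. In the other marker lists 0 genes passed in normoxia. The part of these shifts in the results below was not tested.

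Txnrd1, Srxn1 and Prdx1 rose with doranidazole in normoxia, and the same 3 genes and Txn1 rose with it in hypoxia, while none of the 8 genes fell in either comparison. These comparisons, like all below, come from a limma fit over the 12 arrays, two-sided, with adjustment over all 22206 probe sets and an adjusted p of 0.05 as the threshold. In normoxia 3 of 8 genes rose, against 1.29% of all probe sets, and 0 fell, against 0.293%. With the 6 normoxia arrays paired by replicate number, the same 3 rose, beside 4.17% of all probe sets higher and 3.1% lower. In hypoxia 4 of 8 rose, against 12.6%, and 0 fell, against 15.1%. At an unadjusted p of 0.05 the count of lower genes was also 0 in both comparisons. The median log2 fold change of the 8 genes was 0.35 in normoxia and 1.08 in hypoxia, beside -0.01 and 0.09 for all probe sets. Every doranidazole array lay above every PBS array for 4 of 8 genes in normoxia (11.3% of all probe sets) and 5 of 8 in hypoxia (20.7%), and below them for 0 and 1 genes (10.5% and 18.1%).

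**Figure D1:**
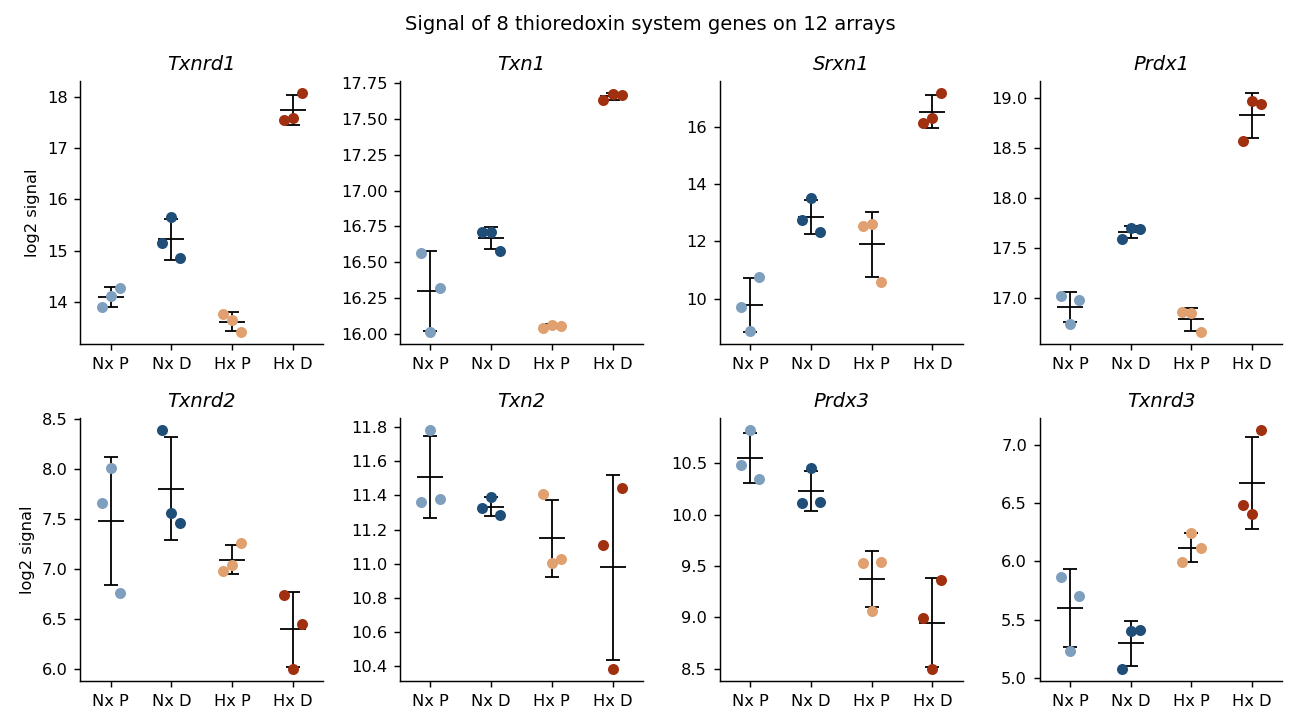
Log2 signal of the 8 measured genes on each of the 12 arrays, by group on the horizontal axis (Nx normoxia, Hx hypoxia, P PBS, D doranidazole), with the mean as a bar and the SD as whiskers (n = 3 arrays). The vertical axes differ between genes and do not start at 0. Txnrd1, Txn1, Srxn1 and Prdx1 were highest on the 3 Hx D arrays, and Prdx3 was lower on the hypoxia arrays.

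Txnrd1, the cytosolic reductase, had the smallest p of the 8 genes in hypoxia. Its log2 signal was 13.90, 14.12 and 14.28 in Nx P and 15.16, 15.65 and 14.87 in Nx D. It was 13.78, 13.66 and 13.41 in Hx P and 17.55, 17.58 and 18.07 in Hx D. All 4 groups were apart, in the order Hx D, Nx D, Nx P, Hx P. With doranidazole Txnrd1 rose 2.19-fold in normoxia, a log2 fold change of 1.13 (SE 0.23, adjusted p = 0.0289). In hypoxia the increase was 17.4-fold, a log2 fold change of 4.12 (SE 0.23, adjusted p = 1.04e-07). The increase in hypoxia exceeded that in normoxia by 2.99 on the log2 scale (SE 0.32, adjusted p = 7.85e-05). Between the PBS groups, the hypoxia arrays were lower by 0.48 (SE 0.23) without passing the test (adjusted p = 0.383).

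Txn1, the cytosolic thioredoxin that Txnrd1 reduces, passed the test in hypoxia and not in normoxia. Its log2 signal was 16.57, 16.01 and 16.32 in Nx P and 16.71, 16.71 and 16.58 in Nx D. It was 16.04, 16.06 and 16.05 in Hx P and 17.63, 17.68 and 17.67 in Hx D. The Hx D arrays stood above all others, the Nx D arrays lay just above Nx P, and the PBS groups overlapped. The difference in normoxia was 0.37 (SE 0.17) and did not pass (adjusted p = 0.373). In hypoxia Txn1 rose 3.05-fold with doranidazole (1.61, SE 0.17, adjusted p = 1.49e-05), and this response was larger than that in normoxia by 1.24 (SE 0.24, adjusted p = 0.00376).

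Srxn1, which encodes sulfiredoxin, had the largest fold changes of the 8 genes with doranidazole and also the widest spread. Its log2 signal was 9.72, 8.86 and 10.74 in Nx P and 12.75, 13.51 and 12.33 in Nx D. It was 12.52, 12.59 and 10.58 in Hx P and 16.13, 16.29 and 17.18 in Hx D. The Hx D arrays were above all others, while Nx D overlapped Hx P, and Hx P overlapped Nx P through its replicate 3. With doranidazole Srxn1 rose 8.48-fold in normoxia, a log2 fold change of 3.08 (SE 0.57, adjusted p = 0.0182). In hypoxia it rose 24.8-fold, or by 4.63 on the log2 scale (SE 0.57, adjusted p = 5.67e-05). The responses differed by 1.55 (SE 0.80, 95% confidence interval -0.19 to 3.28), which did not pass (adjusted p = 0.236), so that a response of the same size in both oxygen levels and one several times larger in hypoxia both lie within the interval. With PBS, the hypoxia arrays were higher by 2.12 (SE 0.57, adjusted p = 0.0801). Without Hx P replicate 3 that difference was 2.78 and passed (adjusted p = 0.00524).

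Prdx1, the cytosolic peroxiredoxin, rose with doranidazole at both oxygen levels. Its log2 signal was 17.02, 16.75 and 16.98 in Nx P and 17.59, 17.70 and 17.69 in Nx D. It was 16.86, 16.85 and 16.66 in Hx P and 18.56, 18.96 and 18.94 in Hx D. The doranidazole groups were each apart from all others, and the PBS groups overlapped. With doranidazole Prdx1 rose 1.68-fold at 21% O2, by 0.75 on the log2 scale (SE 0.17, adjusted p = 0.0471), and 4.08-fold at 1% O2, by 2.03 (SE 0.17, adjusted p = 2.34e-06). The responses differed by 1.28 (SE 0.24, adjusted p = 0.00317). On Hx D replicate 2 its 18.96 was the highest signal of any probe set on that array, and on the other Hx D arrays it ranked 20 and 9 of 22206, against ranks of 93 to 137 with PBS. Whether the top of the measured range held back the Prdx1 values in Hx D was not tested.

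In the mitochondria-directed branch, neither the reductase Txnrd2, the thioredoxin Txn2 nor the peroxiredoxin Prdx3 passed the test for doranidazole in either oxygen level. Txnrd2 had a log2 signal of 7.66, 8.01 and 6.76 in Nx P and 8.39, 7.56 and 7.46 in Nx D. It had 6.98, 7.05 and 7.26 in Hx P and 6.74, 6.00 and 6.45 in Hx D. The Hx D arrays were the lowest and did not overlap Hx P, yet the difference of -0.69 (SE 0.33, adjusted p = 0.138) did not pass, nor did that of 0.33 in normoxia (adjusted p = 0.809). Txn2 had 11.36, 11.79 and 11.38 in Nx P and 11.32, 11.39 and 11.29 in Nx D. It had 11.41, 11.01 and 11.03 in Hx P and 11.11, 10.38 and 11.44 in Hx D. All its neighbouring groups overlapped, and doranidazole gave -0.17 in normoxia (95% confidence interval -0.71 to 0.36, adjusted p = 0.892) and -0.17 in hypoxia (-0.71 to 0.37, adjusted p = 0.655).

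Prdx3, which removes peroxide in mitochondria, was lower at 1% O2 with either treatment. Its log2 signal was 10.48, 10.83 and 10.35 in Nx P and 10.11, 10.46 and 10.12 in Nx D. It was 9.53, 9.06 and 9.53 in Hx P and 8.99, 8.50 and 9.36 in Hx D. All 6 hypoxia arrays lay below all 6 normoxia arrays, and within each oxygen level the drug and PBS groups overlapped. Each Nx D array was below the Nx P array of the same replicate number, and in the paired fit of these 6 arrays the difference did not pass (adjusted p = 0.344). With PBS, Prdx3 fell 2.26-fold in hypoxia (log2 fold change -1.18, SE 0.24, adjusted p = 0.0254), and with doranidazole it fell 2.43-fold (-1.28, SE 0.24, adjusted p = 0.00146). The call with PBS was lost without Nx P replicate 1 or 2 or Hx P replicate 1 or 2 (adjusted p from 0.0718 to 0.154) and with only the PBS groups in the fit (0.063). The doranidazole difference was -0.32 in normoxia (adjusted p = 0.688) and -0.43 in hypoxia (adjusted p = 0.209).

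Txnrd3, the reductase best known from testis, gave a signal within a few log2 units of the array medians. Its log2 signal was 5.87, 5.23 and 5.70 in Nx P and 5.08, 5.40 and 5.41 in Nx D. It was 6.00, 6.24 and 6.12 in Hx P and 6.48, 6.41 and 7.13 in Hx D. The hypoxia groups were apart from each other and from normoxia, where the groups overlapped. Doranidazole gave -0.30 in normoxia (adjusted p = 0.699) and 0.56 in hypoxia (SE 0.23, adjusted p = 0.092), neither of which passed. The hypoxia difference passed after quantile normalization (0.89, adjusted p = 0.00594) and after cyclic loess normalization (0.66, adjusted p = 0.0366).

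The doranidazole response itself was larger in hypoxia than in normoxia for 3 of the 8 genes, Txnrd1, Txn1 and Prdx1, against 5.02% of all probe sets, and smaller for 0 (1 at an unadjusted p of 0.05), against 8.5%, with 13.5% of all probe sets past the threshold either way. The median difference of the 8 genes was 1.05 on the log2 scale, beside 0.10 for all probe sets. Txnrd2 had a difference of -1.02 (SE 0.46, adjusted p = 0.175), Txnrd3 one of 0.86 (SE 0.32, adjusted p = 0.104), Txn2 one of 0.00 (SE 0.35) and Prdx3 one of -0.11 (SE 0.34). The Txnrd3 difference passed with quantile normalization, cyclic loess normalization and array weights (adjusted p of 0.0149, 0.046 and 0.0364).

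Hypoxia with PBS moved 1 of the 8 genes past the threshold, Prdx3, which fell, against 0.518% of all probe sets lower and 1.46% higher. With doranidazole in both arms, hypoxia raised 5 genes (13.5% of all probe sets) and lowered 2 (16.5%), which together is 7 of 8 beside 30% of all probe sets in either direction. Srxn1 rose by 3.67 on the log2 scale (adjusted p = 0.000389), Txnrd1 by 2.51 (6.59e-06), Txnrd3 by 1.38 (0.000676), Prdx1 by 1.16 (0.000244) and Txn1 by 0.99 (0.000718). Txnrd2 fell by 1.40 (SE 0.33, adjusted p = 0.00612), a call that was lost after quantile normalization (adjusted p = 0.0613), and Prdx3 fell as given above. Txn2 gave -0.36 (SE 0.25, adjusted p = 0.305). These comparisons share arrays with the doranidazole comparisons and are not independent of them.

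**Figure D2:**
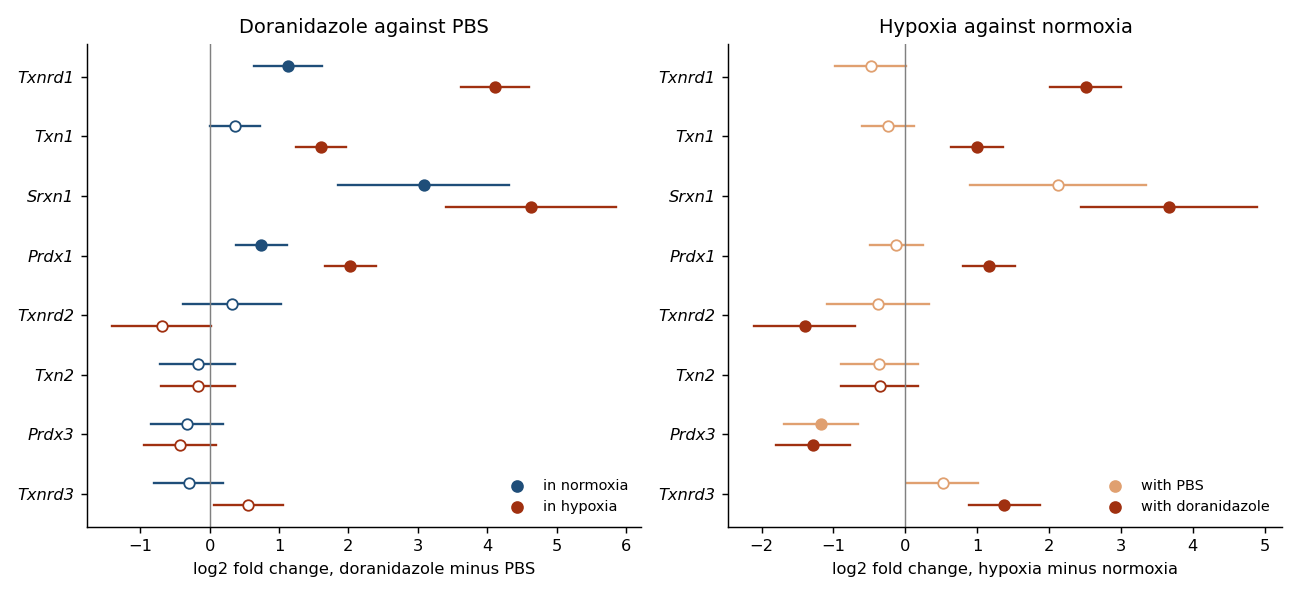
Log2 fold changes of the 8 genes with 95% confidence intervals, for doranidazole minus PBS (left) and hypoxia minus normoxia (right). Filled points passed an adjusted p of 0.05 in limma and open points did not. Txnrd1 lay at 1.13 in normoxia and 4.12 in hypoxia on the left, and Prdx3 at -1.18 and -1.28 on the right.

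In the fit without pairing, the calls in normoxia were each lost without some single arrays. Those in hypoxia did not change with any single array. Single arrays were not left out of the paired normoxia fit, in which Txnrd1, Srxn1 and Prdx1 passed (adjusted p of 0.0166, 0.00607 and 0.0368). The normoxia log2 fold change of Prdx1 was 0.66 to 0.80 over all single omissions. Without 1 array of the normoxia groups, Txnrd1 kept a log2 fold change of 0.92 to 1.31 but lost its call without any of Nx P replicates 1 to 3 or Nx D replicates 1 and 2 (adjusted p from 0.0502 to 0.134), and it also lost it when the median of each array was set equal (0.0512). Srxn1 lost its call without Nx P replicate 1 or 2 or Nx D replicate 1 or 2 (adjusted p from 0.0631 to 0.0875), with log2 fold changes of 2.62 to 3.57 over all single omissions. Prdx1 lost its call without any of the 6 normoxia arrays or Hx P replicate 1 or 2 (adjusted p from 0.0595 to 0.169), with dim probe sets left out (0.0553), with equal medians (0.0709) and when arrays of the same number were blocked in the 12-array fit (0.0642). In hypoxia, Txnrd1, Srxn1, Txn1 and Prdx1 passed without each of the 12 arrays in turn, with log2 fold changes of 3.95 to 4.21, 3.97 to 4.98, 1.60 to 1.62 and 1.96 to 2.16.

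**Figure D3:**
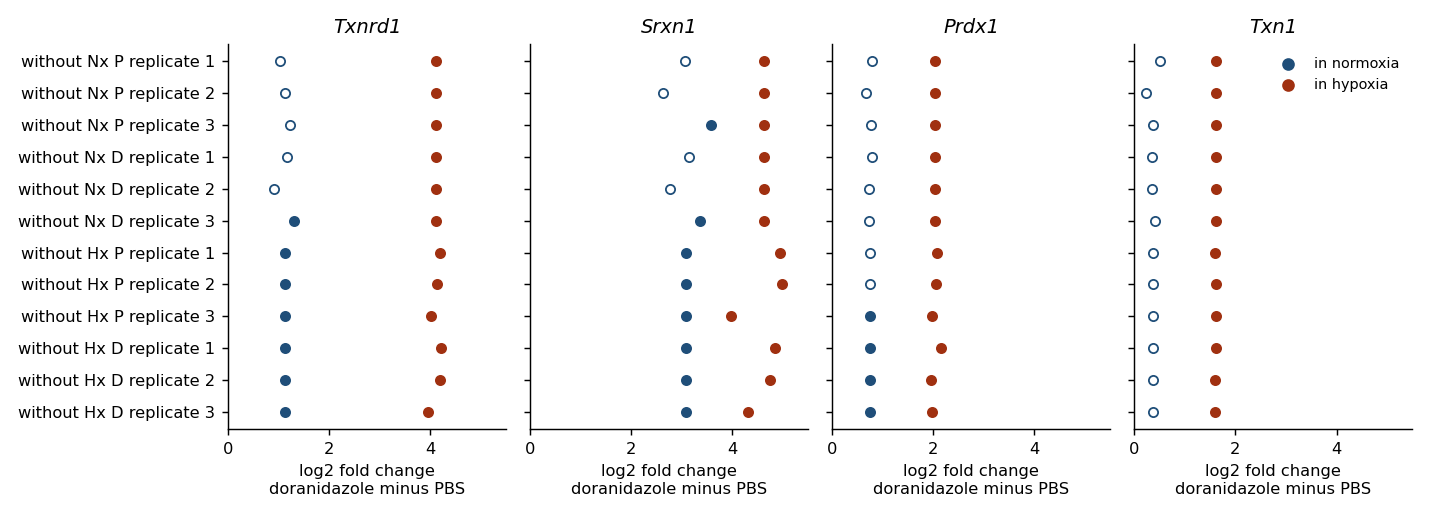
Log2 fold change of doranidazole against PBS for Txnrd1, Srxn1, Prdx1 and Txn1, in the fit without pairing. Each of the 12 arrays named on the vertical axis was left out in turn. Filled points passed an adjusted p of 0.05 and open points did not. The hypoxia points stayed filled throughout, and the Prdx1 normoxia points were open without any normoxia array.

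Of 15 further thioredoxin partners, peroxiredoxins and thioredoxin-dependent reductases, 0 passed in normoxia in the limma fit without pairing (3 at an unadjusted p of 0.05). In hypoxia 1 of the 15 rose and 6 fell with doranidazole (12.6% and 15.1% of all probe sets). Their median log2 fold change was 0.05 in normoxia and -0.40 in hypoxia. Msra, a methionine sulfoxide reductase that draws on thioredoxin, fell by 2.82 in hypoxia (SE 0.38, adjusted p = 0.00013), from 8.98 to 10.05 on the Hx P arrays to 5.86 to 7.45 on the Hx D arrays. Sesn3, a sestrin, fell by 2.53 (SE 0.22, adjusted p = 4.03e-06), with 10.20 to 11.19 in Hx P and 8.23 to 8.34 in Hx D. Rrm1, the large subunit of ribonucleotide reductase, fell by 2.14 (SE 0.52, adjusted p = 0.00755). Both Msra and Sesn3 also differed in their response between oxygen levels, by -2.88 (SE 0.54, adjusted p = 0.00349) and -2.98 (SE 0.32, adjusted p = 7.18e-05).

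Prdx2 and Prdx4, further peroxiredoxin genes, fell with doranidazole in hypoxia, where Prdx1 rose. Prdx4, which acts in the endoplasmic reticulum, and Prdx2, a cytosolic relative of Prdx1, are named here after their values were seen. Prdx4 had a log2 signal of 12.62, 12.75 and 12.63 in Hx P and 11.96, 11.43 and 12.02 in Hx D and fell by 0.87 (SE 0.21, adjusted p = 0.00853). In normoxia it gave -0.63 (adjusted p = 0.187). Prdx2 had 15.68, 15.51 and 15.87 in Hx P and 15.28, 15.22 and 15.22 in Hx D, a decrease of 0.45 (SE 0.16, adjusted p = 0.0495). The Prdx2 call was lost without any array except Hx P replicate 2 (adjusted p of up to 0.173) and after quantile or cyclic loess normalization (0.222 and 0.233), and its normoxia value was 0.15 (adjusted p = 0.822).

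In normoxia, the 3 genes of this list with the smallest p were Msrb3 (0.86, SE 0.29), Prdx4 and Txnip (-2.66, SE 1.07), with adjusted p of 0.187, 0.187 and 0.295. Msrb3 encodes a methionine sulfoxide reductase and Txnip a protein that binds and inhibits thioredoxin. Txnip was at 7.83, 13.13 and 7.72 in Nx P and 6.40, 7.20 and 7.09 in Nx D, so that its mean difference rests on Nx P replicate 2. Without that array it was -0.88. When the 6 normoxia arrays were fitted in pairs of equal replicate number, Msrb3 rose (adjusted p = 0.0228) and Rrm1 and Rrm2, the subunits of ribonucleotide reductase, fell (-0.93 and -1.09, adjusted p = 0.0216 and 0.00705), which makes 3 of 15, beside 4.17% of all probe sets higher and 3.1% lower in that fit. In hypoxia with PBS, Msrb1, a selenium-containing methionine sulfoxide reductase, rose by 1.01 (adjusted p = 0.0224) and Sesn3 by 0.97 (adjusted p = 0.0469). Both calls were lost without Nx P replicate 1 or 2 or Hx P replicate 1 or 2, for Msrb1 with adjusted p from 0.0765 to 0.139. Sesn3 lost its call without any array except Hx P replicate 3 and Hx D replicate 3, with adjusted p from 0.0545 to 0.255. It also lost it with quantile normalization (0.0522), equal medians (0.0533) and a trended and robust prior (0.0665). With only the PBS groups in the fit, neither Sesn3 (0.162) nor Msrb1 (0.0781) passed.

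Of 16 measured thioredoxin-fold relatives, 0 passed in normoxia in the limma fit without pairing (3 at an unadjusted p of 0.05). Of all probe sets, 1.29% were higher and 0.293% lower. In hypoxia 3 rose and 5 fell with doranidazole, beside 12.6% and 15.1%, and the medians were -0.20 and -0.08. Txndc2, a thioredoxin known from mouse sperm, was at 3.30 to 4.38 in the other 3 groups, below the median probe set, and at 7.28 to 8.72 in Hx D. It rose in the limma fit (log2 fold change 3.84, SE 0.33, adjusted p = 3.5e-06). Whether its signal in the other 3 groups was above background was not tested, so this value is a difference between deposited signals and not a measured fold. Txnl1, a thioredoxin-like protein of the proteasome, rose by 1.00 (SE 0.23, adjusted p = 0.00644), and Tmx4, a membrane-bound relative of the endoplasmic reticulum, fell by 2.69 (SE 0.27, adjusted p = 1.18e-05). The counts in hypoxia were lower without Hx P replicate 1 (3 rose and 1 fell), Hx P replicate 2 (2 and 1) or Hx D replicate 1 (3 and 2). In normoxia the smallest p belonged to Txndc5 (-0.67), Nxn (0.50) and Txndc16 (-0.60), with adjusted p of 0.0658, 0.216 and 0.298.

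The glutaredoxin system is the parallel route that reduces disulfides with glutathione, and 4 of its 5 listed genes were measured. In normoxia 0 of them passed (1 at an unadjusted p of 0.05), beside 1.29% of all probe sets higher and 0.293% lower. In hypoxia 1 rose and 1 fell, beside 12.6% and 15.1%. Gsr, glutathione reductase, which spends NADPH to reduce glutathione, was at 12.04, 11.33 and 12.12 in Hx P and 15.94, 15.69 and 16.38 in Hx D. It rose 18.1-fold (4.18, SE 0.34, adjusted p = 1.96e-06). In normoxia it was at 12.73, 11.63 and 12.31 with PBS and 12.91, 13.54 and 12.46 with doranidazole, with overlapping groups and a difference of 0.75 that did not pass (SE 0.34, adjusted p = 0.38). The responses of Gsr differed by 3.43 (SE 0.48, adjusted p = 0.000512). The mitochondrial glutaredoxin gene Glrx2 fell by 0.79 in hypoxia (SE 0.23, adjusted p = 0.0201), a call lost without Hx P replicate 2 (0.0837) or Hx D replicate 1 (0.0777), with quantile or cyclic loess normalization (0.0523 and 0.0576) and with only the hypoxia groups in the fit (0.0788). Glrx gave 0.63 in normoxia and 0.60 in hypoxia, neither past the threshold.

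**Figure D4:**
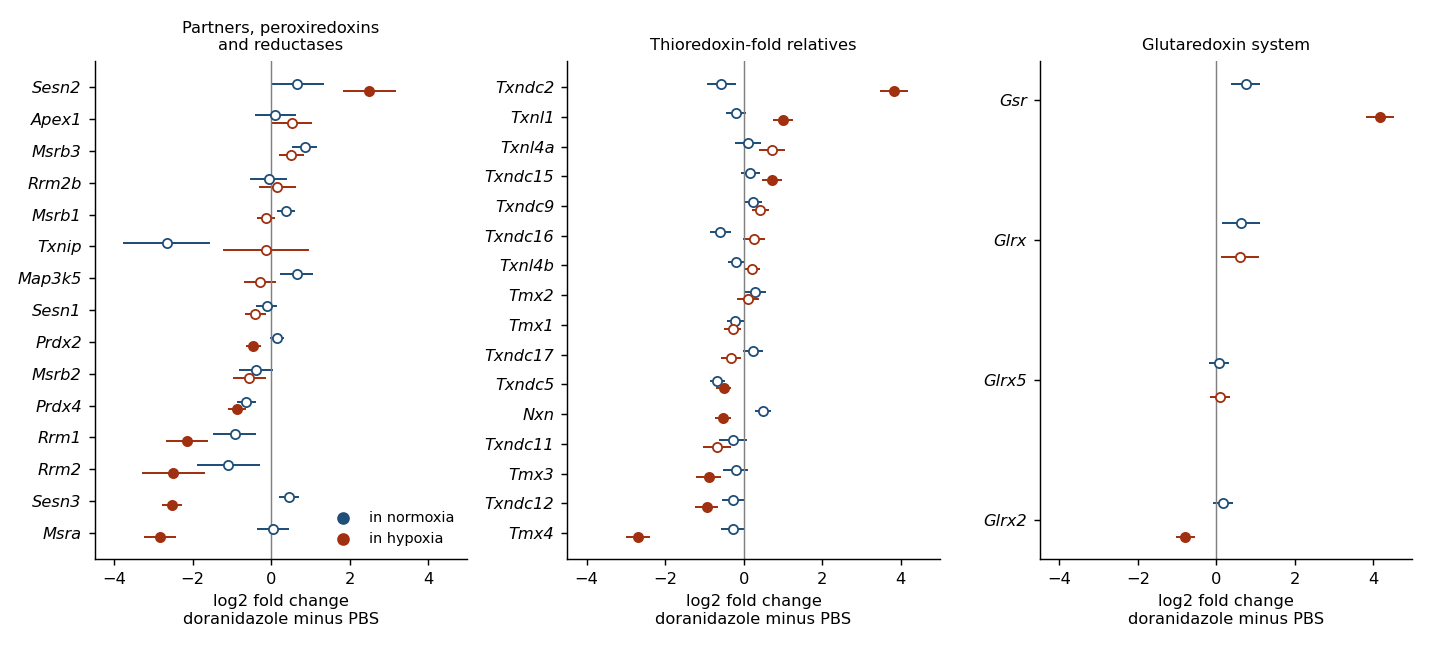
Log2 fold change of doranidazole minus PBS, with its standard error as a line, for the measured genes of the 3 related lists in normoxia and hypoxia. Filled points passed an adjusted p of 0.05 in limma and open points did not. In normoxia all points were open in this fit without pairing, and in hypoxia Gsr (4.18) rose and Msra (-2.82) and Tmx4 (-2.69) fell. The Txndc2 point starts from a signal below the median probe set, and whether that signal was above background was not tested.

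The transcript of the regulator NRF2 itself did not pass in either drug comparison. Nfe2l2 gave 0.01 in normoxia (SE 0.39, adjusted p = 0.997) and -0.94 in hypoxia (SE 0.39, adjusted p = 0.0899), where its Hx D arrays spanned 9.16 to 11.04. Without Hx D replicate 3 the hypoxia value was -1.49 and passed (adjusted p = 0.0012). Keap1, its repressor, gave 0.04 in normoxia (adjusted p = 0.981) and 0.45 in hypoxia (SE 0.21, adjusted p = 0.133). The Keap1 value in hypoxia passed without Hx D replicate 1 (0.67, adjusted p = 0.0248) and after quantile or cyclic loess normalization (adjusted p of 0.0145 and 0.0162).

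Over the 12 arrays, which fall into 4 groups and so share the group differences, the log2 signals of Txnrd1 and Prdx1 correlated at r = 0.982, those of Txn1 and Prdx1 at 0.978, those of Txnrd1 and Txn1 at 0.971 and those of Txnrd1 and Srxn1 at 0.898. Txn2 and Prdx3 correlated at 0.806, and Prdx3 and Srxn1 at -0.732. The genes of the array with the most similar pattern were Pgrmc1 (r = 0.994), Fnip1 (0.993) and Atp6v1c1 (0.991) for Txnrd1. For Srxn1 they were Herpud2 (0.986), Dennd4c (0.985) and Golga4 (0.98), for Txn1 Cbr3 (0.989), Impact (0.979) and Gsr (0.978), and for Prdx1 Clba1 (0.986), Cyb5a (0.984) and Atp6v1c1 (0.982). Atp6v1c1 was thus among the closest for both Txnrd1 and Prdx1. For Prdx3 the closest were Polr2c, Dus3l and Taf10 (each 0.963), and for Txn2, whose groups overlapped, Cep162 (0.914), Dnajc17 (0.912) and Ssu72 (0.907). These correlations describe the 12 arrays and were not tested.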

How the data were processed

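RNA of GSC-H cells was hybridized to 12 Clariom S Mouse arrays, 3 in each of 4 groups. CEL files were processed by the authors with Transcriptome Analysis Console, and log2 signals of 22206 probe sets were deposited. The sources used here do not give the summarization or normalization, and both deposited tables held the same values. The platform annotation names 1 gene for 19572 probe sets and none for 2634. Values were used as deposited, with no further scaling, and fitted with limma 3.58.1 in R 4.3.3 over 12 arrays and 4 groups with no block (lmFit, eBayes, two-sided, Benjamini-Hochberg adjustment over all probe sets, threshold 0.05). The genes, the 3 related lists and the tests were chosen with earlier results of these data known. Besides the 8 measured genes, the rule names up to 3 genes with the smallest p from each list, the 3 genes most alike each of 6 members by Pearson correlation, and Nfe2l2 and Keap1. Others are marked where they appear.

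Of the listed relatives, Nme9 and Glrx3 matched no symbol and were not analysed here. Pairing was checked by correlating deviations from the group means between arrays of the same replicate number. The correlations were 0.202, 0.329 and 0.326 between Nx D and Nx P, where each array correlated best with its own number, so the numbers were taken to pair these groups. They were -0.0202, -0.024 and -0.0466 between the hypoxia groups. Between Hx P and Nx P they were -0.0205, 0.264 and 0.356, where replicates 2 and 3 correlated best with their own number and replicate 1 did not. Between Hx D and Nx D they were 0.143, 0.031 and -0.00816. Here too replicates 1 and 2 correlated best with their own number, and replicate 3 did not. Alternatives were quantile, cyclic loess and median normalization, omission of dim probe sets (lowest 30% by mean signal), array weights, a trended and robust prior, replicate blocks, 1 probe set per gene, only the compared groups in the fit, and each array left out. The fit was checked on simulated data. The number of arrays limits the precision.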

Additional observations from a re-analysis of the deposited data

Results flagged for a closer look

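The following genes responded to doranidazole differently in hypoxia and in normoxia by a test of the difference itself in the limma fit (hypoxia response minus normoxia response, log2 scale, adjusted over all probe sets, of which 13.5% passed). Among the thioredoxin system genes these were Txnrd1 (2.99, SE 0.32, adjusted p = 7.85e-05), Txn1 (1.24, SE 0.24, adjusted p = 0.00376) and Prdx1 (1.28, SE 0.24, adjusted p = 0.00317). All Hx D arrays of each of these genes lay above all other arrays.

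Among the related genes, Gsr gave 3.43 (adjusted p = 0.000512), Sesn3 -2.98 (7.18e-05) and Msra -2.88 (0.00349). Of the thioredoxin-fold relatives, Txndc2, whose signal outside Hx D was below the median probe set and was not tested against background, gave 4.41 (7.79e-05), Tmx4 -2.42 (0.00116), Nxn -1.02 (0.0164) and Txnl1, which the naming rule does not include for this comparison, 1.19 (0.0312). The Nxn difference was lost after quantile or cyclic loess normalization (adjusted p of 0.175 and 0.0659) and with a trended prior (0.0558). The Txnl1 difference was lost without any of 8 arrays (adjusted p from 0.0533 to 0.0804), namely Nx P replicates 1 and 3, Nx D replicates 1 to 3, Hx P replicates 1 and 2 and Hx D replicate 2. Groups of 3 arrays are too small for a test of single outlying arrays, and none was made.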

How the results depend on the processing

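Txnrd1, Srxn1, Txn1 and Prdx1 passed in hypoxia, and Txnrd1, Txn1 and Prdx1 in the difference of response, under every alternative run, and hypoxia with doranidazole kept 7 when single arrays were left out. In normoxia the count of 3 became 1 with equal medians and ranged from 0 to 3 without single arrays, and in hypoxia with PBS the count of 1 became 2 with array weights, 0 with only the compared groups in the fit and 0 to 2 without single arrays.

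Signs turned for values near 0. Txn2 in hypoxia was 0.054 with quantile and 0.053 with cyclic loess normalization (-0.40 to 0.13 without single arrays), and its difference of response was -0.11 with equal medians, -0.26 with array weights and -0.23 to 0.30 without single arrays. The difference of Prdx3 was 0.25 with quantile and 0.17 with loess normalization (-0.31 to 0.12 without single arrays), and Txnrd2 in normoxia ranged from -0.030 to 0.59. In normoxia Keap1 was -0.0027 with loess and -0.038 with array weights (-0.11 to 0.12 without single arrays), and Nfe2l2 was -0.023 with quantile, -0.020 with loess and -0.012 with array weights (-0.10 to 0.15).

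With replicate pairs as a block over the 6 normoxia arrays, Txnrd1, Srxn1 and Prdx1 still passed (adjusted p of 0.0166, 0.00607 and 0.0368), and all probe sets past the threshold went from 352 to 1614, against 1386 with array weights, 1010 with the compared groups alone and 38 to 569 without single arrays. In hypoxia, where the numbers did not pair the arrays, the block gave 4043 in place of 6154, with 1525 higher and 2518 lower. Among the calls it ended were those of Rrm1, Prdx2, Prdx4 and Glrx2 (adjusted p of 0.0631, 0.219, 0.0569 and 0.0984). Of the further partners, peroxiredoxins and reductases, 1 rose and 2 fell in that fit, in place of 1 and 6. Of the thioredoxin-fold relatives, 2 rose and 3 fell, in place of 3 and 5. In hypoxia with PBS the count of 439 was 2273 with array weights, 115 with the compared groups alone and 151 to 1432 without single arrays. The block over the arrays of 1 comparison was not run for the oxygen comparisons or the difference of response, which needs all 4 groups in the fit, no other probe set could be tried because each gene had 1, and the causes were not tested. Equal medians moved the median of all probe sets in hypoxia from 0.09 to -0.03 and the share of higher calls from 45.5% to 35.1% (with doranidazole between oxygen levels from 45.1% to 33.4%), and quantile normalization moved it for the difference of response from 37.1% to 49%. Of 1558 recomputed values for single genes, 1432 kept direction and side of the threshold, 83 lost it, 15 gained it and 28 turned sign. Low signal limits Txndc2, which lay below the median probe set outside Hx D. Txnrd3 lay above the array medians by a few log2 units at most, with group means of 5.30 to 6.67.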
